A study of Homo sapiens with 4 samples.

Results

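Amino acids cross membranes through carriers that the human genome encodes in several solute carrier (SLC) families. This account covers 7 of them in MOLM13 leukaemia cells: SLC1, SLC3, SLC6, SLC7, SLC36, SLC38 and SLC43. Members were chosen with earlier results of these data known. The rule went by symbol, taking every row of the count table named for any of these families, leaving out SLC7A11 and SLC6A8. This gave 57 of 57992 genes, of which 24 had enough counts for a test. MOLM13 is a human cell line from an acute myeloid leukaemia, present here as a venetoclax-resistant subline (venetoclax inhibits BCL2). Doxycycline induction of a short hairpin RNA was applied to every library: a control hairpin in 2 libraries whose genotype is labelled WT, and one directed at the arginine methyltransferase PRMT9 in 2 libraries labelled as its knockdown. Poly(A) RNA was sequenced. No cells without doxycycline and no venetoclax-sensitive parent cells were compared, and the labels do not say whether libraries 1 and 2 of a group are separate cultures, repeats of 1 culture or different hairpins, so p-values and SDs measure only the spread between these libraries.

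Several carriers of large neutral and basic amino acids at the cell surface work as pairs in exchange. A heavy chain of the SLC3 family brings an SLC7 light chain to the membrane, and the light chain swaps an amino acid for another. Carriers of the SLC1, SLC6 and SLC38 families use sodium to load the cell with glutamine, alanine, glutamate, glycine or taurine, and the glutamine so gained is a classic exchange substrate for leucine. SLC36 and several SLC38 proteins sit partly or mainly on lysosomes, where amino acid supply is read by the growth kinase complex mTORC1. In starved cells the transcription factor ATF4 is known to raise many of these genes.

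Library totals ranged from 28592902 to 33845172 counts, and PRMT9 itself fell from 13.2 and 14.3 CPM (read counts scaled to library size) in the controls to 2.62 and 2.30 CPM with its hairpin (log2 fold change -2.48, SE 0.12, edgeR adjusted p = 1.13e-11). Of 11 myeloid leukaemia markers, 10 were tested, and CD68 reached no more than 0.295 CPM in any library. Their summed level was 1557 and 1548 CPM in the controls and 2319 and 2316 CPM with the PRMT9 hairpin, 9 of the 10 having risen and MPO having fallen. The part of this shift in the transporter results was not tested. The 16 lymphoid, epithelial, stromal and erythroid markers reached at most 0.56 CPM. In RNA from bulk cultures, fewer cells that express a gene and less RNA per cell cannot be told apart.

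Transcripts of amino acid transporters were mostly lower with the PRMT9 hairpin. Of the 24 tested members, 18 fell, 3 rose and 3 were not called, where a call is an adjusted p below 0.05 over all genes tested. Among all 15193 tested genes 68% were called, of which 5249 (34.5% of all tested) fell and 5078 (33.4%) rose. The median log2 fold change (PRMT9 hairpin over control) was -0.60 over the tested members and 0.00 over all tested genes. The falls included the leucine exchanger SLC7A5, its heavy chain SLC3A2, the arginine carrier SLC7A1 and the glutamine carriers SLC1A5, SLC38A1 and SLC38A2. These are the 6 members with the highest level per length in the controls. The rises were in SLC7A7, SLC43A3 and the barely detected SLC6A11. SLC6A11 passed the count filter only through the hairpin libraries, and the falling SLC6A9 only through the controls. Both PRMT9 hairpin libraries lay below both controls in 18 of the tested members and above both in 4, while 2 overlapped. Of all tested genes, 83.3% had groups that did not overlap, 41.7% in each direction.

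**Figure D1:**
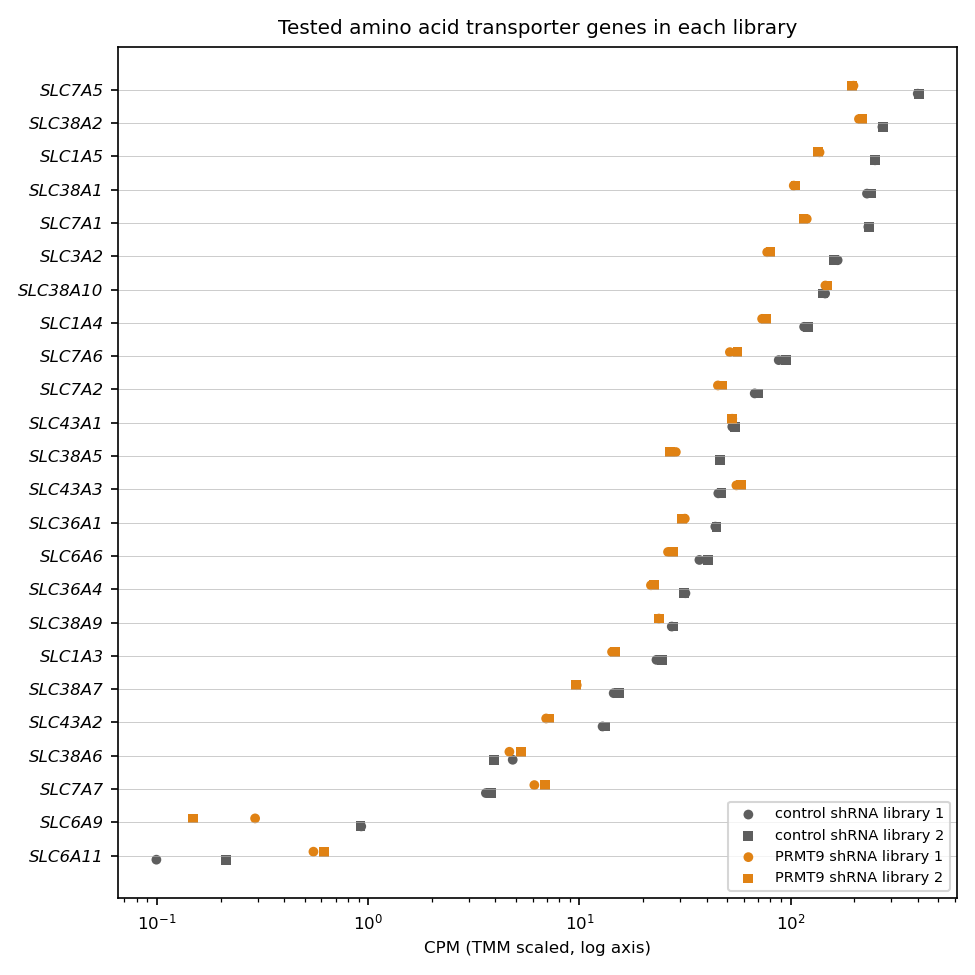
Level of each tested transporter gene in each library, in TMM-scaled CPM on a log axis, with control libraries in grey and PRMT9 hairpin libraries in orange. Genes run from the highest control mean, SLC7A5 (402 CPM), at the top to the lowest, SLC6A11 (0.155 CPM), and most orange points lie to the left of the grey ones.

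The starting stretches of these genes were searched for 3 short motifs because most of the abundant members fell together. RefSeq (GRCh38.p14) gives promoters, here 250 bases before to 50 bases after a transcription start, for 21 of the 24 tested members (not for SLC7A2, SLC6A6 and SLC43A3), and 12 of the 21 have more than 1 start. The core of the C/EBP-ATF response element, which ATF4 and its partners are known to bind, was searched as TGATGNAA on both strands. It stood at a start of 6 of the 21 members. All 6 are among the 16 falling members with a promoter, while 0 of 2 rising and 0 of 3 uncalled members had it. Since 16 of the 21 fell, most matches of any motif would lie among falling members, and the others are too few to compare. The motifs were chosen with the falls known, and a link between motif and change was not tested. Over all RefSeq promoters 3.62% held the C/EBP-ATF core, and 2.68% of the tested genes with a promoter had it at any start. The 21 members have 39 promoters, whereas RefSeq as a whole lists 35116 promoters for 27305 genes. Members thus had more promoters per gene in which a match could lie, which applies to all 3 motifs. The windows below run 5′ to 3′ on the gene's strand, with the match in capitals and 8 flanking bases, fewer where the promoter window ends.
SLC38A1, chr12:46266505-46266528, minus strand: gacccgaaTGATGAAAagggatca
SLC7A1, chr13:29595666-29595689, minus strand: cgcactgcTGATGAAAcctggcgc
SLC1A5, chr19:46784896-46784919, minus strand: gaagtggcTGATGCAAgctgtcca
SLC1A4, chr2:64989384-64989407, plus strand: gctcccgtTTGCATCAtctccagc
SLC1A3, chr5:36596360-36596383, plus strand: gaaatgacTGATGCAAagcagggt
SLC3A2, chr11:62881728-62881748, plus strand: aggactccTTACATCAgctcc
The match began 4 bases before a listed start in SLC38A1, 7 before in SLC1A4, 97 before in SLC1A5 and 220 before in SLC1A3. In SLC7A1 and SLC3A2 it began at bases 8 and 38 of a listed transcript. SLC1A4 and SLC3A2 carry it in the reverse orientation. Only in SLC7A1 is this start the outer end of the counted gene (29595688). The SLC1A3 match lies outside the counted gene, which begins at 36606355, and the others lie inside theirs. Which starts these cells use was not examined.

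SLC7A5 and SLC38A2 had no such match in these windows. The E-box CACGTG, a site that MYC and related factors are known to bind, was present at a start of 7 of the 21 members, 5 of them falling, 1 rising and 1 not called. Of all promoters 7.26% held it, and 12.7% of tested genes with a promoter. One of these stood 130 bases before a start of SLC7A5, and is shown as that gene's match.
SLC7A5, chr16:87869624-87869645, minus strand: ggacgacgCACGTGctccgagc
The core of the interferon-stimulated response element, searched on both strands as GAAA, any 2 bases and GAAA, was found at 1 member, the rising SLC7A7, 10 bases before a start. It was in 3.57% of all promoters and at 4.36% of tested genes with a promoter.
SLC7A7, chr14:22819784-22819809, minus strand: tttcctgtTTTCCATTTCagtccccg
No matches of different motifs overlapped in the members, and a match describes letters and not occupancy.

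Among the heteromeric exchangers covered here, the heavy chain SLC3A2 and its most abundant light chain fell to about the same extent, while a rarer light chain rose. The light chain gene SLC7A11 was left out by the rule, so this does not cover it. SLC3A2 encodes 4F2hc (CD98), the heavy chain that brings several light chains to the membrane (chromosome 11, 62856102 to 62888875, plus strand of GRCh38). It had 167 and 161 CPM in the controls and 77.4 and 80.2 CPM with the PRMT9 hairpin. SLC7A5, which encodes LAT1, the exchanger of leucine and other large neutral amino acids (chromosome 16, 87830023 to 87869488, minus strand), had 399.6 and 405 CPM against 198 and 195 CPM. Neither gene's groups overlapped. SLC3A2 fell by 1.06 (SE 0.03, adjusted p = 2.49e-14) and SLC7A5 by 1.03 on the log2 scale (SE 0.02, adjusted p = 6.31e-16). In the authors' RPKM, which divides by exon length, the ratio of SLC7A5 to SLC3A2 was 2.61 and 2.75 in the controls and 2.79 and 2.65 with the PRMT9 hairpin, and the groups overlapped. Pseudogenes such as SLC7A5P1 and SLC7A5P2 share 3.92% of the 50-base windows of SLC7A5 transcripts.

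SLC7A6 and SLC7A7 encode the related light chains y+LAT2 and y+LAT1, which release basic amino acids in exchange for neutral ones with sodium. They moved in opposite directions. SLC7A6 had 87.8 and 94.7 CPM in the controls and 51.5 and 56.1 CPM with the PRMT9 hairpin (log2 fold change -0.76, SE 0.05, adjusted p = 2.11e-10). SLC7A7 had 3.60 and 3.81 CPM against 6.11 and 6.86 CPM (0.81, SE 0.13, adjusted p = 3.74e-05). Per length, SLC7A6 stood 16.5 and 16.8 times above SLC7A7 in the controls and 5.70 and 5.52 times above it with the PRMT9 hairpin. Of the exon bases of SLC7A6, 44.4% are shared with SLC7A6OS on the other strand, and the counting's use of strand is not given in the sources used here, so its reads are uncertain. SLC7A6OS had 895 and 665 counts in the controls and 718 and 764 with the hairpin. The other heavy chain, SLC3A1, and the light chains SLC7A8, SLC7A9, SLC7A10 and SLC7A13 had too few counts for a test.

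Cationic amino acid carriers fell as well. SLC7A1 encodes CAT1, a carrier of arginine and lysine in most cell types (chromosome 13, 29509410 to 29595688, minus strand). It had 233 and 235 CPM in the controls and 119 and 115 CPM with the PRMT9 hairpin, so the hairpin libraries were clearly lower (log2 fold change -1.001, SE 0.03, adjusted p = 6.23e-15). SLC7A2, which encodes the related CAT2, had 67.6 and 69.8 CPM against 45.2 and 47.4 CPM (-0.57, SE 0.04, adjusted p = 1.76e-09). The 95% confidence intervals of the changes, -1.06 to -0.94 for SLC7A1 and -0.65 to -0.48 for SLC7A2, did not overlap. SLC7A3, SLC7A4 and SLC7A14 had no count in any library.

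All 3 tested SLC1 genes fell. SLC1A5 encodes ASCT2, a sodium-dependent exchanger of glutamine and other neutral amino acids (chromosome 19, 46774883 to 46788594, minus strand). It had 251 and 252 CPM in the controls against 137 and 135 CPM (-0.89, SE 0.02, adjusted p = 1.01e-14). Its exons share 23.4% of their bases with an antisense gene that had between 13 and 45 counts. SLC1A4 encodes ASCT1, which carries alanine, serine and cysteine, and had 116 and 121 CPM against 73.2 and 76.3 CPM (-0.66, SE 0.03, adjusted p = 2.72e-11). SLC1A3, the glutamate and aspartate carrier EAAT1, was less abundant, at 23.1 and 24.5 CPM against 14.3 and 14.7 CPM (-0.72, SE 0.07, adjusted p = 5.17e-08). In each of the 3 genes both hairpin libraries lay below both controls.

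**Figure D2:**
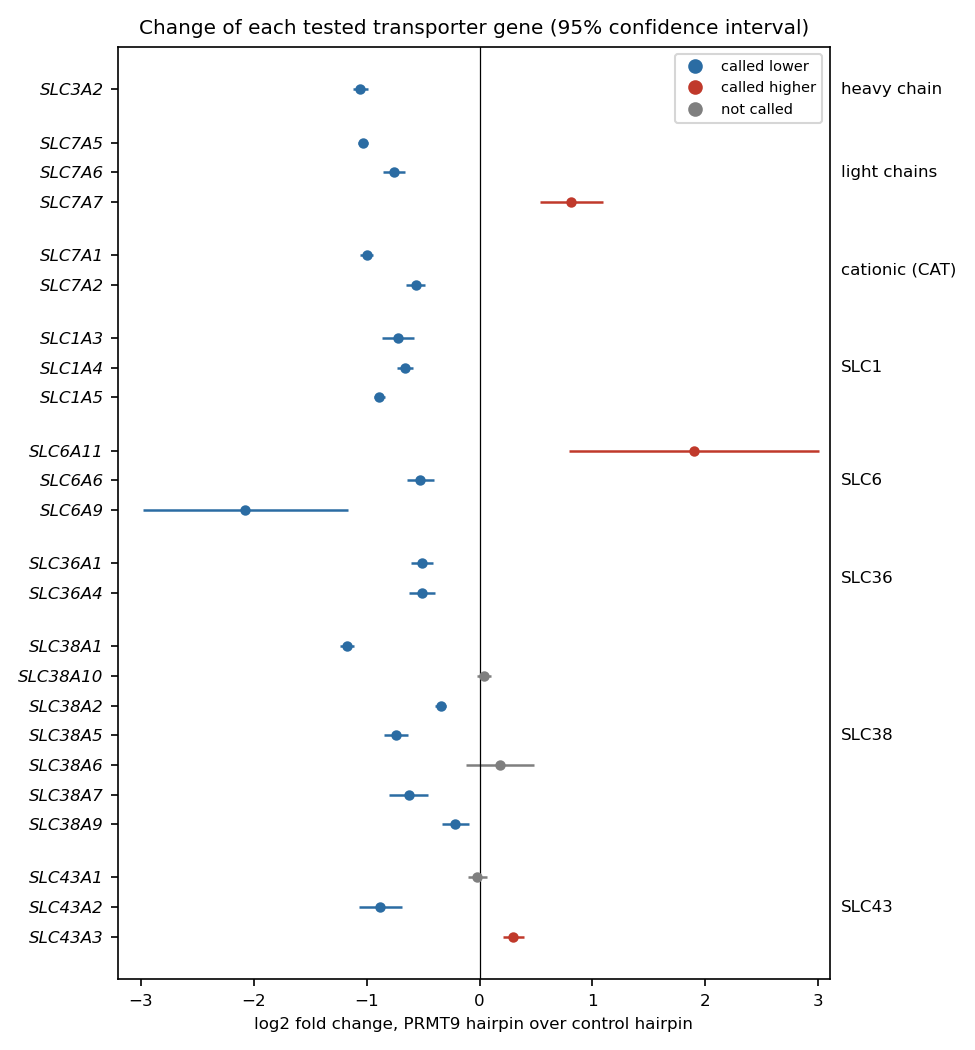
Log2 fold change (PRMT9 hairpin over control hairpin) of each tested transporter gene with its 95% confidence interval from edgeR, grouped by role, with called falls in blue, called rises in red and uncalled genes in grey. Most intervals lie left of 0, from -1.23 to -1.11 for SLC38A1, and the widest belong to the sparsely counted SLC6A9 and SLC6A11.

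In the SLC38 family the size of the fall differed widely between close relatives. SLC38A1 and SLC38A2 encode SNAT1 and SNAT2, sodium-driven importers of glutamine and alanine (system A). They lie next to each other on the minus strand of chromosome 12 with 88.2 kb and no other listed gene between them. SLC38A1 (46183063 to 46270017) had 229.8 and 241 CPM in the controls and 103 and 105 CPM with the PRMT9 hairpin. SLC38A2 (46358189 to 46372867) had 272 and 274 CPM against 211 and 219 CPM. The hairpin libraries were lower in both genes, but the log2 fold change was -1.17 for SLC38A1 (SE 0.03, adjusted p = 2.75e-15) and -0.35 for SLC38A2 (SE 0.02, adjusted p = 1.76e-09). The per-length ratio of SLC38A2 to SLC38A1 was 1.79 and 1.73 in the controls and 3.09 and 3.15 with the hairpin. These groups do not overlap, and an exact two-sided permutation test of 2 against 2 libraries gave p = 0.333, the smallest it can give.

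SLC38A5 encodes SNAT5, a carrier of glutamine, histidine and glycine (system N), and was lower by a middling amount. It had 46.3 CPM in each control and 28.6 and 26.9 CPM with the PRMT9 hairpin (-0.74, SE 0.05, adjusted p = 6.11e-10). The lysosomal glutamine exporter gene SLC38A7 had 14.5 and 15.4 CPM against 9.70 and 9.63 CPM (-0.63, SE 0.08, adjusted p = 3.14e-06). SLC38A9, which encodes the lysosomal arginine sensor that signals to mTORC1, had 27.3 and 27.8 CPM against 23.8 CPM in both hairpin libraries. Its fall of 0.21 (SE 0.06, adjusted p = 0.00256) was the smallest among the called members and was not called by DESeq2 (adjusted p = 0.0583), with upper-quartile scaling (0.0535) or in log2(RPKM + 1) (0.0509). The adjusted p of SLC38A9 ranged from 0.00246 to 0.0861 over the alternatives.

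SLC38A10 and SLC38A6, whose proteins are less well characterised, were not called. SLC38A10 had 146 and 142 CPM in the controls and 146 and 149.6 CPM with the PRMT9 hairpin (0.04, 95% confidence interval -0.02 to 0.10, adjusted p = 0.214). It was called higher with upper-quartile scaling (0.13, adjusted p = 0.000535) and with a filter at 1 CPM (0.07, adjusted p = 0.0268). Over all alternatives the adjusted p of SLC38A10 ranged from 0.000535 to 0.625. SLC38A6 had 4.83 and 3.95 CPM against 4.66 and 5.30 CPM, with overlapping groups (0.18, interval -0.12 to 0.48, adjusted p = 0.273). Of its exon bases 4.76% are shared with TRMT5 on the other strand. TRMT5 had between 1101 and 1210 counts, against 112 to 180 for SLC38A6. Since the counting's use of strand is not given, the reads of SLC38A6 are uncertain.

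The 3 SLC43 genes each did something different. SLC43A2 encodes LAT4, a facilitator of leucine, phenylalanine and methionine, and had 12.9 and 13.2 CPM in the controls against 6.95 and 7.19 CPM (-0.88, SE 0.09, adjusted p = 1.80e-07). SLC43A1 encodes the facilitator LAT3 of similar substrates and had 52.9 and 54.5 CPM against 52.9 CPM in both hairpin libraries. Its change was -0.02 (interval -0.11 to 0.06, adjusted p = 0.645). The per-length ratio of SLC43A1 to SLC43A2 was 12.4 in each control and 22.8 and 22.1 with the PRMT9 hairpin. SLC43A3, known as a purine nucleobase carrier rather than an amino acid carrier, had 45.4 and 47.0 CPM against 55.3 and 58.3 CPM (0.30, SE 0.04, adjusted p = 9.84e-06). It lies 57 kb from SLC43A1 on chromosome 11, and its exons share 29.9% of their bases with AP000781.2 on the same strand. That gene had between 2 and 6 counts, and how reads were divided between them is uncertain.

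The 2 tested SLC36 genes, which encode proton-coupled carriers, both fell, with the same fitted change. SLC36A1 encodes PAT1, a carrier of small neutral amino acids found at lysosomes and the cell surface. It had 44.0 and 44.5 CPM in the controls and 31.5 and 30.7 CPM with the PRMT9 hairpin (-0.51, SE 0.05, adjusted p = 4.27e-08). SLC36A4, which encodes the proline and tryptophan carrier PAT4, had 31.7 and 31.2 CPM against 21.8 and 22.4 CPM (-0.51, SE 0.05, adjusted p = 3.41e-07). SLC36A2 and SLC36A3 were not tested.

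Of 18 SLC6 members, a family best known for neurotransmitter uptake, 3 were tested. The taurine carrier gene SLC6A6 had 37.0 and 40.8 CPM in the controls and 26.3 and 27.6 CPM with the PRMT9 hairpin (-0.53, SE 0.06, adjusted p = 3.59e-07). The glycine carrier gene SLC6A9 had 28 and 26 counts in the controls and 9 and 5 with the hairpin. This was 0.926 and 0.917 CPM against 0.291 and 0.147 CPM, the steepest fitted fall among the members (-2.07, SE 0.43, adjusted p = 0.000405). It rests on few reads, and the gene passed the count filter only through the controls, so a fall was favoured in advance. Of the exon bases of SLC6A9, 7.83% are shared with CCDC24 on the other strand. In log2(RPKM + 1) the change of SLC6A9 was -0.18 and was not called (adjusted p = 0.109, range over the alternatives 0.000328 to 0.342). SLC6A11, which encodes a carrier of the transmitter GABA, had 3 and 6 counts in the controls and 17 and 21 with the hairpin (1.90, SE 0.52, adjusted p = 0.00398). SLC6A11 was not called by DESeq2 (adjusted p = 0.0541, range over the alternatives 0.00279 to 0.804). Its change was 1.45 without control library 1 and 2.53 without control library 2. This gene passed the count filter only through the hairpin libraries, so a rise was favoured in advance.

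The other 33 members were too sparse to test. No count was found in any library for 16 of them, and the remaining 17 had at most 14 counts in a library. They include the glutamate carriers SLC1A1, SLC1A2, SLC1A6 and SLC1A7 and the monoamine carriers SLC6A2, SLC6A3 and SLC6A4. The least counted tested member, SLC6A11, had 47 counts over the 4 libraries, and the most counted untested one had 36.

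Set against each other per length, a few genes made up most of the family's RNA. The share of the 6 highest in the controls was smaller with the PRMT9 hairpin. Summed over the 57 members, RPKM was 399.7 and 414 in the controls and 251 and 254 with the hairpin, 1.61-fold lower. The groups did not overlap, but with 2 libraries each an exact two-sided permutation test of such sums and shares cannot go below p = 0.333. SLC7A5 led in both groups with 84.8 ± 2.21 RPKM (SD, n = 2) in the controls and 41.4 ± 0.439 RPKM (n = 2) with the hairpin. SLC1A5 was next with 75.4 ± 1.46 and 40.7 ± 0.379 RPKM. SLC7A5 and SLC1A5 differed in the controls by more than their spread, whereas with the hairpin the gap between them was close to it. SLC38A2 followed with 41.4 ± 0.965 and 32.5 ± 0.960 RPKM. Next were SLC3A2 (31.6 ± 0.293) and SLC7A1 (30.4 ± 0.691) in the controls, which with the hairpin stood at 15.2 ± 0.402 and 15.2 ± 0.363 RPKM and could not be told apart.

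The 6 most abundant control members (SLC7A5, SLC1A5, SLC38A2, SLC3A2, SLC7A1 and SLC38A1) held 70.7% and 70.3% of the summed RPKM in the controls and 61.9% and 61.3% with the PRMT9 hairpin. They were picked by their control levels, so a smaller share with the hairpin was favoured in advance. SLC38A1 went from rank 6 to rank 10 in the order of levels, and the uncalled SLC38A10 from rank 7 to rank 4, its share going from 4.66% and 4.49% to 7.53% and 7.63%. The share of SLC43A1 was 3.70% and 3.77% in the controls against 5.96% and 5.90%, although its own level hardly differed. The share of SLC38A2 likewise was larger with the hairpin, at 12.7% and 13.1% against 10.2% and 10.1%, although the gene itself fell.

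**Figure D3:**
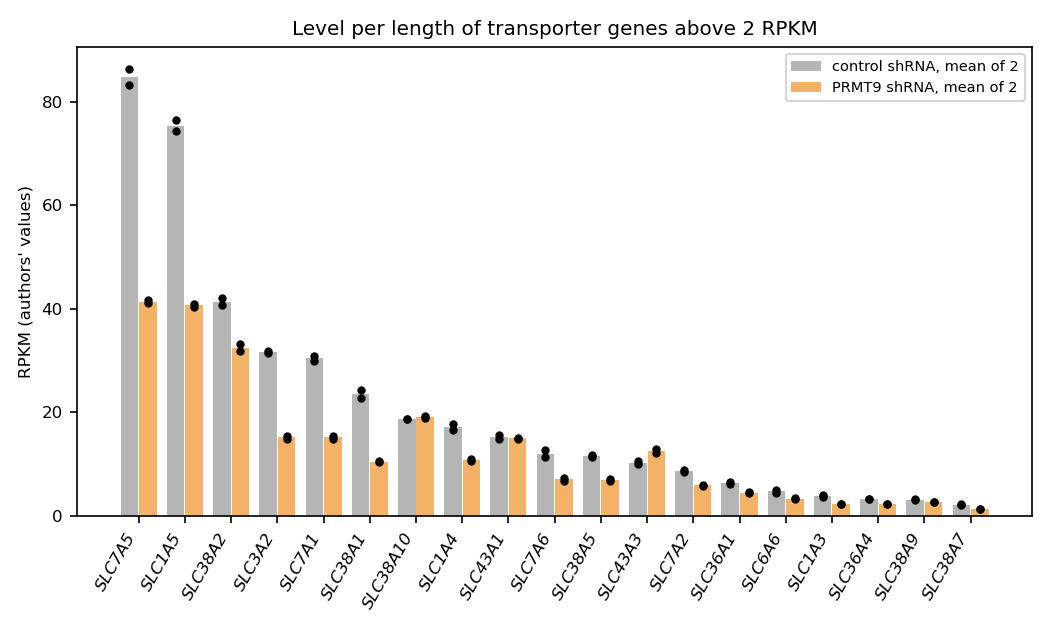
Level per length of transporter genes with a group mean of at least 2 RPKM, in the authors' RPKM, as bars for the mean of 2 libraries (grey, control hairpin; orange, PRMT9 hairpin) with each library as a black point. The tallest bars, SLC7A5 at 84.8 and SLC1A5 at 75.4 RPKM in the controls, stand at 41.4 and 40.7 RPKM with the PRMT9 hairpin.

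Other genes of amino acid handling were taken from 4 lists, whose counts stand beside the 34.5% of all tested genes that fell and the 33.4% that rose. Carriers outside these families are given by membrane, and the difference between the membranes was not tested. Of 12 tested mitochondrial carriers of amino acids or glutathione 9 fell and 2 rose, and of 8 tested carriers of the surface and lysosome 1 fell and 4 rose. The latter group is small, with 12.5% fallen and 50% risen, and its difference from the shares over all genes was not tested. SLC25A44, which brings branched-chain amino acids into mitochondria, went from 46.2 and 43.2 to 22.6 and 21.1 CPM (-1.04, adjusted p = 4.02e-11). The ornithine carrier gene SLC25A15 fell by 0.76 and the glutathione carrier gene SLC25A39 by 0.52. SLC15A3, a lysosomal peptide and histidine carrier, went from 12.1 and 13.0 to 24.9 and 25.5 CPM (1.01, adjusted p = 8.66e-10), the sialic acid exporter gene SLC17A5 rose by 0.67 and SFXN3 by 0.39. The median over the 20 tested genes of this list was -0.19.

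In a list of enzymes for making or breaking down the transported amino acids, 15 of 21 tested genes were lower and 5 higher. The median was -0.32. The falls include WARS (-0.33), which attaches tryptophan to its tRNA and neither makes nor breaks down tryptophan. ASNS, which makes asparagine, went from 79.9 and 76.4 to 25.7 and 26.5 CPM (-1.58, adjusted p = 1.18e-14). GOT1, an aspartate aminotransferase gene, fell by 1.12, and BCAT1, which starts the breakdown of branched-chain amino acids, by 0.79. GLUL, which makes glutamine from glutamate, went from 715 and 728 to 1517 and 1523 CPM (1.08, adjusted p = 2.59e-17). KYNU of tryptophan breakdown rose by 1.07 and DBT, a subunit of the branched-chain keto acid complex, by 0.53. All 7 tested enzymes of arginine and proline fell, as did 5 of 6 in the glutamine, glutamate, aspartate and asparagine group. Of 6 tested branched-chain enzymes 2 fell and 3 rose. Of 2 tested genes grouped under tryptophan and glycine, KYNU rose and WARS fell.

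A list of regulators of the response to amino acid starvation had 6 falls and 1 rise among 9 tested genes (median -0.55). The 6 falls include CHAC1 (-2.55), which encodes a glutathione-degrading enzyme and not a regulator. CHAC1 had 71 and 68 counts in the controls and 16 and 10 with the PRMT9 hairpin. ATF4 itself went from 454 and 448 to 359 and 357 CPM (-0.33, adjusted p = 2.13e-10), its partner gene CEBPG from 144 and 146 to 71.0 and 73.8 CPM (adjusted p = 4.25e-14), and JDP2 fell by 1.49. The stress factor gene DDIT3 rose by 0.88. ATF4 is held back or released mainly at translation, which RNA levels do not show. Among 29 tested genes that report amino acids to mTORC1, 12 rose (41.4%) and 10 fell (34.5%), with a median of 0.05. These shares are close to the 33.4% and 34.5% over all tested genes. SESN3, whose protein is a stress-induced inhibitor of mTORC1, went from 11.9 and 11.7 to 37.8 and 37.1 CPM (1.66, adjusted p = 3.28e-13). RRAGD rose by 0.97 and WDR59 by 0.74. SEH1L fell by 0.59, SEC13 by 0.34 and LAMTOR2 by 0.44.

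**Figure D4:**
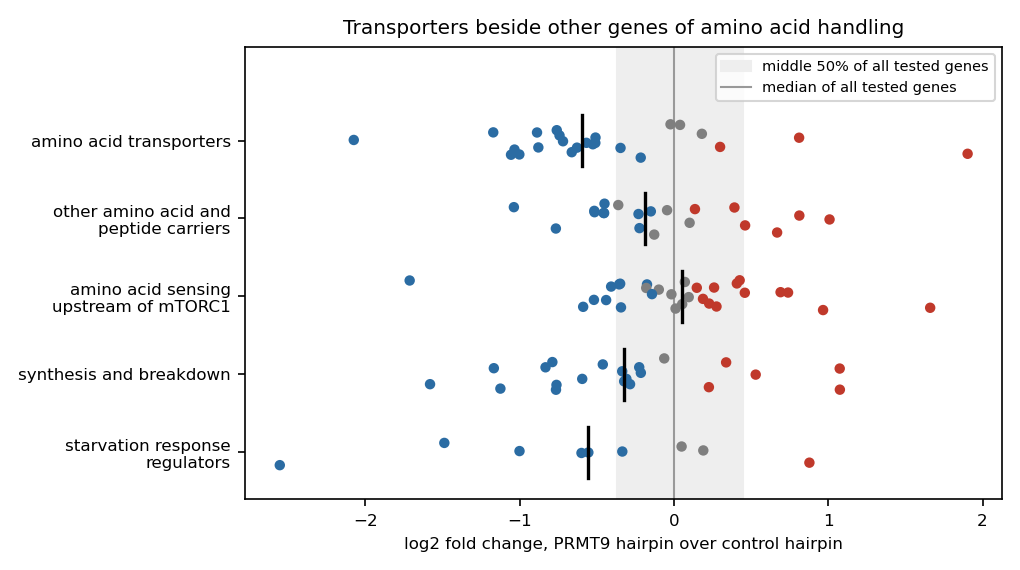
Log2 fold change (PRMT9 hairpin over control hairpin) of each tested gene in the transporter families and in 4 other lists, with called falls in blue, called rises in red, uncalled genes in grey and a black bar at each list's median. The grey band holds the middle 50% of all tested genes (-0.37 to 0.45). The transporter median of -0.60 lies to its left, and the median of the mTORC1 sensing list (0.05) lies inside it.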

How the data were processed

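The values deposited by the authors are raw counts and RPKM for each gene (Ensembl IDs). The submitters' processing notes name GRCh38, Trimmomatic 0.39, STAR 2.7.2a and SAMtools 1.10 but no roles. Which program counted reads, whether it used strand, and its annotation are not given in the sources. The deposited RPKM equals count per exon length and library total times 1 factor per library (0.979 to 1.01). Genes were filtered with filterByExpr (minimum count 10), leaving 15193, and tested with edgeR 4.0.16 (R 4.3.3): TMM scaling, quasi-likelihood test, a group term, Benjamini-Hochberg adjustment over all tested genes. The SE is the log2 fold change divided by the root of the F statistic. CPM values are TMM scaled. Counting error is largest, relative to the level, in genes with few counts, and the SEs include it. The script was tested on simulated data. Window sharing and exon overlap used GENCODE release 29. Members, lists, motifs and tests were chosen with earlier results of these data known. Every tested member is named. The rule asked for values in each library from 20 CPM or a called 2-fold change upward, and those of the lower members were added. From each other list, the 3 rises and 3 falls with the lowest adjusted p are named, or fewer where fewer passed. WARS and CHAC1 are named as well, because their roles differ from their list's title. DESeq2 1.42.0, limma 3.58.1 (voom, and limma-trend on log2 RPKM), other scalings, filters and thresholds, a replicate block and left-out libraries were the alternatives.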

Additional observations from a re-analysis of the deposited data

How the results depend on the processing

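Over 15 alternatives, 15 of the 21 called members kept their direction and their call wherever they could be tested, and 0 reversed. The exceptions were SLC38A9, SLC6A9 and SLC6A11, as given above, and SLC43A3, SLC6A6 and SLC7A7 in log2(RPKM + 1) without a filter. Over all genes that alternative called 5745 against 10327. The median log2 fold change of the members was -0.51 with upper-quartile scaling, which moved the median of all genes to 0.09 (57.2% of calls higher against 49.2%), -0.22 without a filter on low counts (41 members), -0.42 in log2(RPKM + 1) and 0.00 there without a filter (57 members, most near 0). Leaving out 1 library gave -0.63 to -0.55, the latter without control library 2. In log2(RPKM + 1) without a filter, 0 members were called higher and 15 lower, and 6 genes each were called lower among the other carriers and the mTORC1 sensing genes. Among the starvation regulators 3 were called higher with upper-quartile scaling, and 1 to 2 with a library left out (2 without PRMT9 hairpin library 2). The uncalled change of SLC43A1 turned to 0.067 with upper-quartile scaling and 0.010 with a filter at 1 CPM, and ranged from -0.042 to 0.016 with a library left out (0.016 without control library 2). The replicate numbers have no stated meaning and deviations of same-numbered libraries had a correlation of -0.03 across genes, and a fit with the replicate block called 18 members lower and 3 higher, as without it. With 2 libraries a group, carriers near or below 1 CPM (SLC6A9, SLC6A11 and the 33 untested genes) are limited by depth.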
